A study of Mus musculus with 16 samples.

Results

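The genes described here are 10 members of the NF-kB system, namely the transcription factor genes Nfkb1, Nfkb2 and Relb, the IkB family genes Nfkbia, Nfkbie and Nfkbiz, the ubiquitin-editing feedback genes Tnfaip3 and Birc3, and the adhesion molecule genes Vcam1 and Icam1. They were chosen by gene symbol, and all 10 were found among the 18635 genes listed over the 4 count tables of the series. Each was listed in all 4 tables.

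The libraries came from mouse samples described as tumours, grown from lines implanted into syngeneic mice. KPC Trp53bp1 knockout tumours (5 libraries) were set against KPC wild-type tumours (5 libraries), and ID8 Trp53bp1 knockout tumours (3 libraries) against ID8 wild-type tumours (3 libraries). Trp53bp1 encodes 53BP1, a DNA double-strand break repair factor, KPC is a mouse pancreatic cancer line, and ID8 derives from ovarian surface epithelium of the mouse and is used as an ovarian cancer model. The labels give no treatment, age or sex, and they name a single knockout line for each parent line, so the effect of the knockout and a difference between clones cannot be told apart. The knockout was made in the implanted line, and the mice that carried the tumours are not described as knockout. The labels call the libraries biological replicates. They do not say whether each came from another mouse, so p-values measure the spread between these samples.

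NF-kB transcription factors are dimers of Rel-family proteins that are held inactive in the cytoplasm by IkB proteins. In the canonical route an IKK kinase complex marks IkB for destruction and frees dimers that hold RelA, whereas the non-canonical route, through the kinase NIK, processes the Nfkb2 product so that it pairs with RelB. The freed dimers raise transcription of cytokines and adhesion molecules and also of their own inhibitors, among them Nfkbia and Tnfaip3, which close the response again.

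Windows around the starts of several members held matches to the motif known for these dimers. RefSeq windows from 250 bases before to 50 bases after an annotated start were at hand for 6 of the 10 members, in 9 windows of build GRCm38.p6, and the sequences of 4 windows are shown because they belong to 3 genes that feed back on the pathway or build its factors and to 1 adhesion gene. They were searched on both strands for the core GGNNNTTCC and for the 10-letter kB consensus, which overlap each other in most places, and capitals mark every match of either.
Nfkbia, chr12:55492598-55492897, minus strand: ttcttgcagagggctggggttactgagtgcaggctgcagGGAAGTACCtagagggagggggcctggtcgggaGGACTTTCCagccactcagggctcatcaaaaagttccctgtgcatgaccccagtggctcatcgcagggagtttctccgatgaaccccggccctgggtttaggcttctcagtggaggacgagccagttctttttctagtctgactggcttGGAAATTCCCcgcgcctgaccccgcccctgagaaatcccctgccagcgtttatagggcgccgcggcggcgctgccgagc
Nfkb2, chr19:46304487-46304786, plus strand: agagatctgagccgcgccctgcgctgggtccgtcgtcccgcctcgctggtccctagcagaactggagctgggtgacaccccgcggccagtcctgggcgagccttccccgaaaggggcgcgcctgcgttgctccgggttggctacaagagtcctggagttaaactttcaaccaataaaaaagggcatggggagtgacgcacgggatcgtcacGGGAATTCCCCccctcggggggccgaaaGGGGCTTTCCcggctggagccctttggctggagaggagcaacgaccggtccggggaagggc
Tnfaip3, chr10:19015361-19015660, minus strand: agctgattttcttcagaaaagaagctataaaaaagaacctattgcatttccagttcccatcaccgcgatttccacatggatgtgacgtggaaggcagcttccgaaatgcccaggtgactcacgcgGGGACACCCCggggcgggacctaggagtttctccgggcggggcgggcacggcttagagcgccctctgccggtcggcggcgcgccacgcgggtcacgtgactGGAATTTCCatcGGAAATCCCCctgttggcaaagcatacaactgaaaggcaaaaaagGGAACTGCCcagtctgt
Icam1, chr9:21015690-21015989, plus strand: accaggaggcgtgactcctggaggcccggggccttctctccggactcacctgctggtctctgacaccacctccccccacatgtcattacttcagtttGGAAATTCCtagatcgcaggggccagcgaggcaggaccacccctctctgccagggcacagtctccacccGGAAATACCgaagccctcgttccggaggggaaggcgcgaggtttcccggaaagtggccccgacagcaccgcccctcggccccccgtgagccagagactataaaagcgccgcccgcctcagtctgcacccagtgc
Positions count from 1 at the start, and bases before it are negative. In the Nfkbia window the consensus match began at -29, and 2 further core matches began at -178 and -211. In the Nfkb2 window 2 overlapping consensus matches began at -39 and -38 and another at -11. The Tnfaip3 window held consensus matches at -125 and -12 and further core matches at -24 and 34. Icam1 held no consensus match in its window, but core matches at -153 and -84. The consensus was found in 6 of the 9 windows of members, or 66.7%, against 8.46% of all 32851 windows, and the core in 8 of 9, or 88.9%, against 18.5% of all windows. The 9 windows include 3 of Nfkb2 and 2 of Tnfaip3, some of which overlap, and a match describes letters and not a bound site. The Birc3 window held neither motif.

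The libraries held 17902867 to 19727536 counts each, and the lowest count of a member in any library was 179. Levels are given in CPM, the read count scaled to sequencing depth with TMM factors. Trp53bp1 itself averaged 33.8 ± 3.79 CPM in KPC knockout and 50.3 ± 2.93 CPM in KPC wild-type tumours (SD, n = 5 each). Its log2 fold change there was -0.59 (adjusted p = 0.004 by edgeR). It averaged 18.9 ± 0.502 CPM in ID8 knockout and 47.4 ± 2.78 CPM in ID8 wild-type libraries (SD, n = 3 each). The ID8 log2 fold change was -1.33 (adjusted p = 1.15e-10 by edgeR). Several defining markers of host immune, vessel and red blood cells had no count in ID8. Ptprc and Laptm5 of the 8 leukocyte markers, Adgre1, C1qa, C1qb, C1qc, Fcgr1 and Itgam of the 12 macrophage markers and Cdh5, Kdr and Cldn5 of the 10 endothelial markers were at 0 in all 6 ID8 libraries. So were Hbb-bs, Hbb-bt, Hba-a1, Hba-a2 and Slc4a1 of the 6 erythroid markers. The 8 leukocyte markers summed to 0.367 to 0.683 CPM in ID8 knockout and 0.217 to 0.378 CPM in ID8 wild-type libraries, against 1020 to 2030 CPM in KPC knockout and 442 to 1210 CPM in KPC wild-type tumours. The 10 endothelial markers summed to 140 to 168 CPM in ID8 knockout and 131 to 141 CPM in ID8 wild-type libraries, and the 7 dendritic cell markers, of which Flt3, Xcr1, Clec9a and Cd209a were at 0, to 55.8 to 65.8 CPM and 67.0 to 67.6 CPM in those groups. One protocol label speaks of RNA taken from cells, and the samples labelled ID8 tumours are named ID8 libraries here. Epithelial markers were present in both lines, at 9820 to 11900 CPM in KPC knockout and 5940 to 6980 CPM in KPC wild-type tumours and at 2870 to 2960 CPM in ID8 knockout and 3720 to 4050 CPM in ID8 wild-type libraries, summed over 8 genes. The biological coefficient of variation was 25.1% in KPC and 5.08% in ID8.

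All 10 members had higher means in the knockout than in the wild type in both lines, but the sizes differed widely. In KPC, 6 of 10 rose by edgeR's quasi-likelihood test at an adjusted p of 0.05 or less, namely Nfkb2, Relb, Nfkbia, Nfkbie, Tnfaip3 and Icam1, each by less than 2-fold. In ID8, 9 of 10 rose, all but Nfkb1. Vcam1 led there with 11.2-fold and Nfkbiz followed with 5.31-fold. The 6 that rose in KPC were all among the 9 that rose in ID8. With 1 library left out the KPC count ran from 4 to 8. It was 4 without knockout library 1, 3, 4 or 5 or wild-type library 1, 2, 3 or 5, and 8 without wild-type library 4. Beside these counts, 6.67% of the 14283 genes tested in KPC and 25.4% of the 11933 tested in ID8 were called higher. The median log2 fold change of the members was 0.50 in KPC and 0.78 in ID8, beside -0.01 and 0.01 over all genes tested in those lines. Knockout and wild-type libraries did not overlap for 4 of 10 members in KPC, where 5.75% of all genes tested were higher without overlap, and for 10 of 10 in ID8, where 28.7% were. In whole tumours a higher value can come from more cells of a type or from more RNA per cell, which cannot be told apart here. In ID8 the leukocyte markers summed to 0.683 CPM at most in any library, and the part of other cell types there was not tested.

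**Figure D1:**
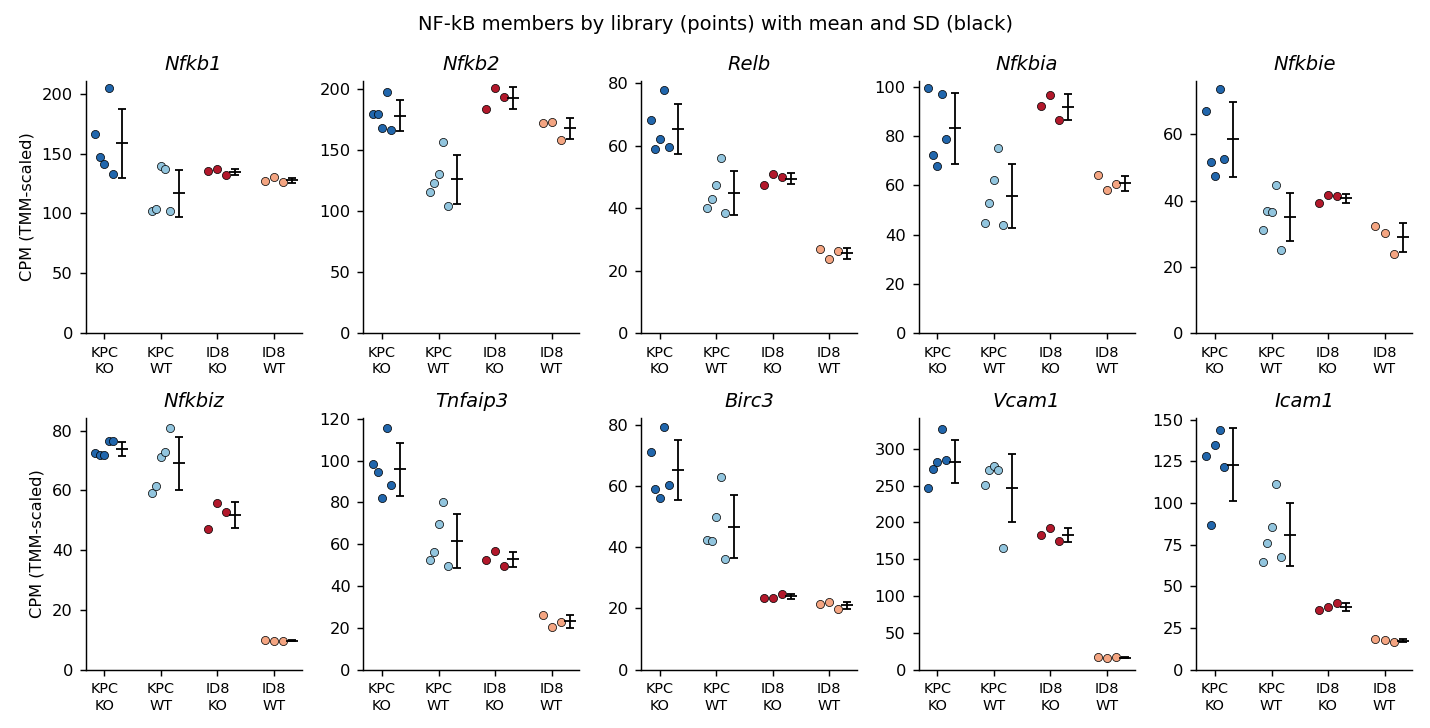
Level of each of the 10 members in every library, in TMM-scaled CPM on a linear axis from 0, with points for libraries and black marks for mean and SD (n = 5 per KPC group, n = 3 per ID8 group). Vcam1 and Nfkbiz are low in the ID8 wild-type libraries alone, whereas Nfkb2, Relb, Nfkbie and Tnfaip3 separate knockout from wild type in both lines.

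Among the factor genes, Relb and Nfkb2 rose in both lines and Nfkb1 passed the test in neither. Relb encodes the factor that pairs with the Nfkb2 product in the non-canonical route. It had 68.4, 59.0, 62.1, 78.0 and 59.6 CPM in KPC knockout libraries 1 to 5, against 40.1, 42.8, 47.4, 56.0 and 38.5 CPM in KPC wild-type libraries 1 to 5. Every knockout tumour lay above every wild-type tumour, with knockout library 4 and wild-type library 4 the highest of their groups. The fitted log2 fold change was 0.52 (SE 0.109, adjusted p = 0.0152). In ID8, Relb stood at 47.5, 50.9 and 49.96 CPM in the knockout, against 26.9, 23.7 and 26.2 CPM in the wild type. The groups lay far apart, and the log2 fold change was 0.96 (SE 0.0638, adjusted p = 3.49e-09).

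Nfkb2, whose product is both an inhibitor and the precursor of a factor, had lower fold changes than Relb in both lines. KPC knockout tumours had 179.7, 179, 168, 198 and 166 CPM, against 115, 123, 131, 157 and 104 CPM in KPC wild-type tumours. The groups did not overlap, although wild-type library 4 came within 10 CPM of the lowest knockout library, and the log2 fold change was 0.48 (SE 0.0967, adjusted p = 0.0129). ID8 knockout libraries had 183, 201 and 194 CPM, against 172, 173 and 158 CPM in ID8 wild-type libraries, again without overlap, and the log2 fold change was 0.21 (SE 0.0512, adjusted p = 0.00313). This ID8 call was lost in a joint fit of the 4 groups (adjusted p = 0.265).

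Nfkb1, which encodes the precursor of the DNA-binding partner of RelA, gave no call. It had 166, 147, 142, 205 and 133 CPM in KPC knockout tumours, against 102, 104, 139.8, 137 and 102 CPM in KPC wild-type tumours. Knockout library 4 was the highest, and wild-type libraries 3 and 4 overlapped the knockout group. The log2 fold change was 0.42 (SE 0.136, adjusted p = 0.0623). In ID8 the values were 135, 137 and 132 CPM in the knockout, against 127, 130.2 and 126 CPM in the wild type. These groups did not overlap, but they lay within a few CPM of each other, and the log2 fold change was 0.08 (SE 0.0448, adjusted p = 0.149).

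Of the inhibitor genes, Nfkbia and Nfkbie rose in both lines. Nfkbia encodes IkB-alpha, the classical cytoplasmic inhibitor and feedback target of RelA dimers. It had 99.5, 72.2, 67.9, 97.3 and 78.9 CPM in KPC knockout tumours, against 44.8, 52.7, 62.2, 75.0 and 44.0 CPM in KPC wild-type tumours. The groups overlapped, since wild-type library 4 lay above knockout libraries 2 and 3, and the log2 fold change was 0.56 (SE 0.158, adjusted p = 0.0417). In ID8 knockout libraries Nfkbia was at 92.3, 96.6 and 86.4 CPM, against 64.0, 58.1 and 60.6 CPM in ID8 wild-type libraries. No library overlapped the other group, and the log2 fold change was 0.60 (SE 0.0567, adjusted p = 2.41e-07).

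Nfkbie, which encodes the related inhibitor IkB-epsilon, had the largest KPC fold change of the members. KPC knockout tumours had 67.2, 51.7, 47.6, 73.7 and 52.5 CPM, against 31.2, 36.8, 36.7, 44.7 and 25.2 CPM in KPC wild-type tumours, with no overlap. The log2 fold change was 0.73 (SE 0.159, adjusted p = 0.0174). ID8 knockout libraries had 39.2, 41.6 and 41.4 CPM, against 32.4, 30.4 and 23.9 CPM in ID8 wild-type libraries. Wild-type library 3 was the lowest of these 6, and the log2 fold change was 0.50 (SE 0.0892, adjusted p = 0.000355). In the joint fit of the 4 groups the adjusted p was 0.0929 and the call was lost.

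Nfkbiz encodes a nuclear IkB protein that acts as a co-activator at secondary response genes, and it behaved differently in the lines. In KPC knockout tumours it had 72.6, 71.8, 71.8, 76.4 and 76.4 CPM, against 59.0, 61.4, 71.1, 72.9 and 80.8 CPM in KPC wild-type tumours. The highest of these 10 values belonged to wild-type library 5, the groups overlapped, and the log2 fold change was 0.08 (SE 0.0851, adjusted p = 0.555). In ID8 knockout libraries Nfkbiz had 47.0, 55.8 and 52.7 CPM, against 9.86, 9.78 and 9.69 CPM in ID8 wild-type libraries. All 3 wild-type values lay close together and far below the knockout, and the log2 fold change was 2.41 (SE 0.0795, adjusted p = 6.76e-13).

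Tnfaip3 encodes a ubiquitin-editing enzyme that shuts off signalling from TNF and Toll-like receptors. It had 98.3, 94.7, 82.1, 116 and 88.3 CPM in KPC knockout tumours, against 52.6, 56.2, 69.8, 80.1 and 49.5 CPM in KPC wild-type tumours. The groups did not overlap, with the highest wild-type value, in library 4, close under the lowest knockout value, in library 3. The log2 fold change was 0.62 (SE 0.135, adjusted p = 0.0171). ID8 knockout libraries had 52.3, 56.6 and 49.5 CPM, against 26.1, 20.2 and 23.0 CPM in ID8 wild-type libraries. The groups were widely separated, and the log2 fold change was 1.2 (SE 0.0807, adjusted p = 7.23e-09).

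Birc3 encodes a ubiquitin ligase of TNF receptor complexes that also restrains NIK, and its differences were small or variable. KPC knockout tumours had 71.0, 59.1, 56.1, 79.3 and 60.3 CPM, against 42.2, 42.1, 49.9, 63.0 and 36.3 CPM in KPC wild-type tumours. Wild-type library 4 lay above 3 of the 5 knockout libraries, and the log2 fold change was 0.46 (SE 0.142, adjusted p = 0.0536), short of the threshold. In ID8 the gene had 23.4, 23.4 and 24.9 CPM in the knockout, against 21.4, 22.0 and 19.7 CPM in the wild type. The groups did not overlap, and the log2 fold change was 0.19 (SE 0.0705, adjusted p = 0.0340). This ID8 call was lost without wild-type library 1 or 3 or without knockout library 2 or 3, with adjusted p-values of 0.051 to 0.151, and also by DESeq2 (adjusted p = 0.111) and in the joint fit of the 4 groups (adjusted p = 0.537).

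The adhesion genes held the largest fold change of the 10 members. Vcam1 encodes a cell surface ligand for integrins of lymphocytes and monocytes. In KPC knockout tumours Vcam1 had 247, 272, 282, 327 and 285 CPM, against 250.2, 271, 277, 271 and 166 CPM in KPC wild-type tumours. Apart from wild-type library 5, which was the lowest, and knockout library 4, which was the highest, the groups shared one range, and the log2 fold change was 0.17 (SE 0.134, adjusted p = 0.384). Without wild-type library 5 it was 0.06 (adjusted p = 0.663). In ID8 knockout libraries it had 182, 192 and 174 CPM, against 16.7, 15.5 and 17.1 CPM in ID8 wild-type libraries. The lowest knockout library lay about an order of magnitude above the highest wild-type library, and the log2 fold change was 3.48 (SE 0.0610, adjusted p = 2.72e-16). This placed Vcam1 at rank 33 of the 11933 genes by log2 fold change.

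Icam1, the ligand of beta-2 integrins on leukocytes, rose in both lines. KPC knockout tumours had 128, 86.8, 135, 144 and 122 CPM, against 64.9, 76.2, 85.5, 112 and 67.5 CPM in KPC wild-type tumours. Knockout library 2 was low and lay below wild-type library 4, and the log2 fold change was 0.58 (SE 0.162, adjusted p = 0.0393). ID8 knockout libraries had 35.6, 37.4 and 40.0 CPM, against 18.4, 17.8 and 16.4 CPM in ID8 wild-type libraries. The groups were fully separated, and the log2 fold change was 1.11 (SE 0.0713, adjusted p = 2.2e-09).

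**Figure D2:**
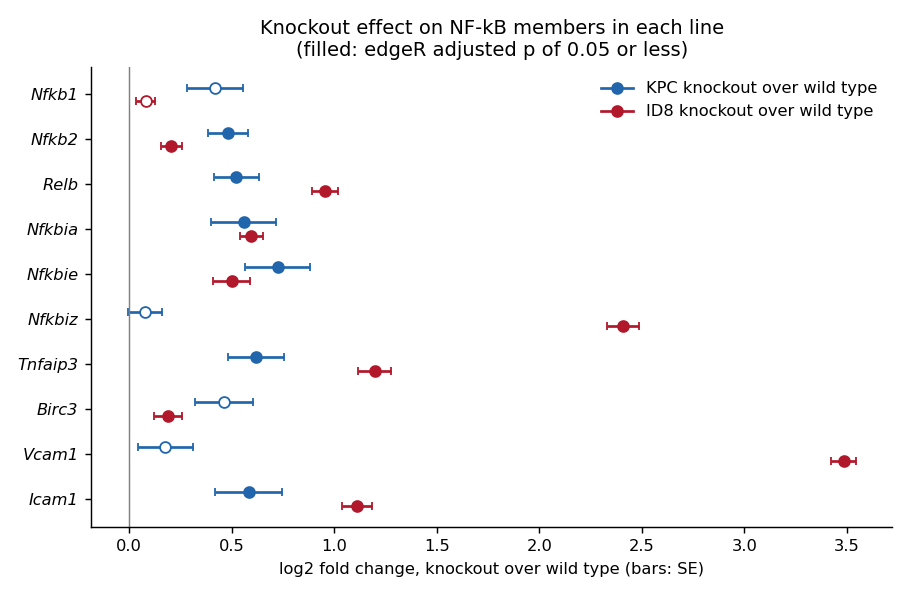
Fitted log2 fold change of each member, knockout over wild type, with its standard error, for KPC (blue) and ID8 (red), where filled points passed edgeR's test at an adjusted p of 0.05 or less. Vcam1 at 3.48 and Nfkbiz at 2.41 stand far to the right in ID8 and near 0 in KPC, and the other members lie between 0.08 and 1.2 in both lines.

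The difference between the lines was tested itself, as the knockout effect in KPC minus that in ID8, over all 16 libraries and 14921 genes. The KPC tumours carried leukocyte RNA and the ID8 libraries almost none, and a label leaves unclear whether ID8 RNA came from tumours or from cells, so line, host content and kind of sample cannot be told apart in this difference. Of the genes tested, 21.8% were called in either direction and 10.3% with a more negative effect in KPC. Vcam1 differed by -3.29 on the log2 scale (SE 0.197, adjusted p = 5.15e-08 by edgeR) and Nfkbiz by -2.31 (SE 0.130, adjusted p = 2.36e-08). The other 8 members did not pass. Tnfaip3 came nearest, at -0.56 (SE 0.212, adjusted p = 0.0735), then Relb at -0.41 (SE 0.164, adjusted p = 0.0883) and Icam1 at -0.51 (SE 0.243, adjusted p = 0.157). Nfkbia showed a difference of -0.02 (SE 0.230, adjusted p = 1 by edgeR), and Nfkb2, Nfkb1, Birc3 and Nfkbie had differences of 0.30, 0.36, 0.30 and 0.25 with standard errors of 0.146, 0.194, 0.214 and 0.243. Without KPC knockout library 4, Relb (adjusted p = 0.0356) and Tnfaip3 (adjusted p = 0.0393) passed as well, Nfkb2 passed without KPC wild-type library 4 (adjusted p = 0.0216) and Tnfaip3 without KPC wild-type library 5 (adjusted p = 0.0413).

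The pair that differed between lines were also the members whose starting level differed most. Wild-type Vcam1 averaged 247 ± 46.6 CPM in KPC and 16.4 ± 0.807 CPM in ID8 (SD, n = 5 and 3), a ratio of 15.1. Wild-type Nfkbiz averaged 69.0 ± 8.89 CPM in KPC and 9.78 ± 0.0841 CPM in ID8, a ratio of 7.06. The ratios of the KPC over the ID8 wild-type mean were 4.64 for Icam1, 2.67 for Tnfaip3, 2.22 for Birc3, 1.76 for Relb, 1.21 for Nfkbie, 0.916 for Nfkbia, 0.915 for Nfkb1 and 0.751 for Nfkb2. The wild-type mean was higher in KPC for 7 of 10 members, beside 56.6% of all 14921 genes. The wild-type ranges of 7 members did not overlap, with Nfkbie, Nfkbia and Nfkb1 as the exceptions, beside 77.3% of all genes, so such separation was common to most genes. KPC wild-type Vcam1 was 1.35 times and Nfkbiz 1.33 times the ID8 knockout mean. The lines differ in tissue of origin and in host RNA, so these ratios are given without a test.

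Scaled to transcript length, in CPM per kilobase of the longest coding transcript in a GRCm38 annotation, the order of members changed with line and genotype. In KPC knockout tumours Vcam1 was first, at 81.4 ± 8.33 (SD, n = 5). Nfkbia at 52.7 ± 9.17, Icam1 at 48.5 ± 8.60 and Nfkb2 at 46.3 ± 3.28 followed, with mean ± SD ranges that overlapped. KPC wild-type tumours had Vcam1 first as well, at 71.2 ± 13.4, and Nfkbia at 35.3 ± 8.25, Nfkb2 at 32.7 ± 5.17 and Icam1 at 32 ± 7.45 within each other's spread. In ID8 knockout libraries Nfkbia at 58.2 ± 3.25, Vcam1 at 52.8 ± 2.57 and Nfkb2 at 50.1 ± 2.31 led (SD, n = 3), with mean ± SD ranges that overlapped between neighbours. ID8 wild-type libraries had Nfkb2 first at 43.6 ± 2.13 and Nfkbia next at 38.6 ± 1.89, while Vcam1 was ninth at 4.73 ± 0.233 and Nfkbiz last at 2.38 ± 0.0204. The CPM per kilobase of Vcam1 and of Tnfaip3 in ID8 wild-type libraries, 4.73 ± 0.233 and 5.22 ± 0.665, had overlapping mean ± SD ranges. Members were measured in the same libraries, and their order within each library was not tested.

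Within the KPC groups the members tended to be high or low in the same tumours. Knockout library 4 was the highest of its group for 8 of 10 members, wild-type library 4 the highest for 7 and wild-type library 5 the lowest for 7. The leukocyte markers varied among the same tumours. They summed to 2030, 1020, 1140, 1820 and 1170 CPM in KPC knockout libraries 1 to 5, against 538, 532, 825, 1210 and 442 CPM in KPC wild-type libraries 1 to 5. Wild-type library 4 was the highest and library 5 the lowest in both respects. In the knockout, library 1 had most leukocyte marker RNA and library 4 came next. Library 1 was the highest for 1 of 10 members, Nfkbia. It came next below library 4 for Nfkb1, Nfkb2, Relb, Nfkbie, Tnfaip3 and Birc3. For Nfkbiz and Icam1 it lay in the middle of its group, and for Vcam1 it was the lowest. Of the 8 leukocyte markers 3 were called higher in the KPC knockout, and all 8 had a positive log2 fold change. Ptprc, the pan-leukocyte CD45 gene, averaged 162 ± 54.0 CPM in knockout and 77.1 ± 39.7 CPM in wild-type tumours (adjusted p = 0.0596 by edgeR, SD, n = 5 each). Macrophage markers summed to 3240 to 5430 CPM in knockout and 2030 to 4390 CPM in wild-type tumours, with 0 of 12 called, and dendritic cell markers to 160 to 323 CPM and 40.7 to 150 CPM in those groups, with 4 of 7 called higher. Of the 8 epithelial markers, 7 were called higher in the KPC knockout, and in ID8 5 of 6 tested were called lower. Beside these marker counts, 6.67% of all genes tested were called higher and 7.01% lower in KPC, and 25.5% lower in ID8. The part of these cell types in the members' differences was not tested beyond the fits that follow.

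With the mean log2 CPM of the 8 leukocyte markers as a covariate in the KPC fit, 0 of 10 members passed edgeR's test, beside 2.43% of all genes, and 0 of 10 had an unadjusted p under 0.05. The count by itself is close to that background. The fitted log2 fold changes then ran from -0.01 for Birc3 to 0.23 for Nfkbie, with a median of 0.10, and the smallest adjusted p was 0.298, for Nfkb2. Nfkbia, at 0.56 without the covariate, was at 0.02 (SE 0.0990) with it. The score was higher in the knockout group, so genotype and leukocyte content cannot be told apart by this fit. In ID8 the same markers summed to 0.683 CPM at most in any library.

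**Figure D3:**
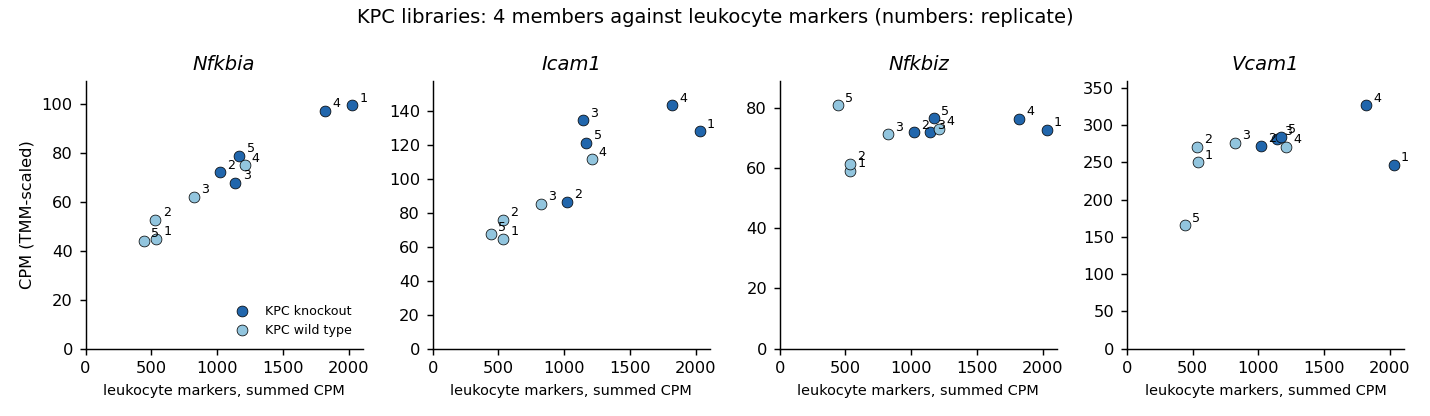
CPM of Nfkbia, Icam1, Nfkbiz and Vcam1 (y axis) against the summed CPM of 8 leukocyte markers (x axis) in the 10 KPC tumours, dark points for knockout and light points for wild type, numbered by replicate. Nfkbia lies near a rising line through both groups, and Icam1 more loosely so, whereas Nfkbiz and Vcam1 show no such order.

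Skeletal muscle RNA also varied among the KPC tumours, from 20.1 to 6840 CPM in knockout and from 636 to 34000 CPM in wild-type tumours over 10 muscle markers. With the muscle score as a covariate 0 of 10 members passed edgeR's test, beside 2.51% of all genes, and 7 of 10 were higher at an unadjusted p under 0.05, beside 9.39% of all genes. The log2 fold changes had a median of 0.47, against 0.50 without the score. Without the 4 libraries with more than 1000 CPM of the muscle actin gene Acta1, which were knockout libraries 2 and 5 and wild-type libraries 2 and 4, 7 of 10 members were called higher, Birc3 being added, beside 8.33% of all genes, with a median of 0.70. Leukocyte markers summed to 1020 and 1170 CPM in those knockout libraries and to 532 and 1210 CPM in those wild-type libraries. The lowest knockout and the highest wild-type library in leukocyte markers were thus removed too, and muscle and leukocyte RNA cannot be told apart in this fit. With an endothelial score the 6 calls stood, beside 5.93% of all genes called higher, with a median of 0.40. The part of muscle RNA in these differences was not tested further. The KPC calls of Nfkbia and Icam1 were the least stable. Each was lost without any 1 of knockout libraries 1, 3, 4 and 5 or wild-type libraries 1, 2, 3 and 5, with adjusted p-values of up to 0.0960 for Nfkbia and 0.0898 for Icam1. Without wild-type library 4, Nfkb1 (adjusted p = 0.0412) and Birc3 (adjusted p = 0.0105) passed edgeR's test too.

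**Figure D4:**
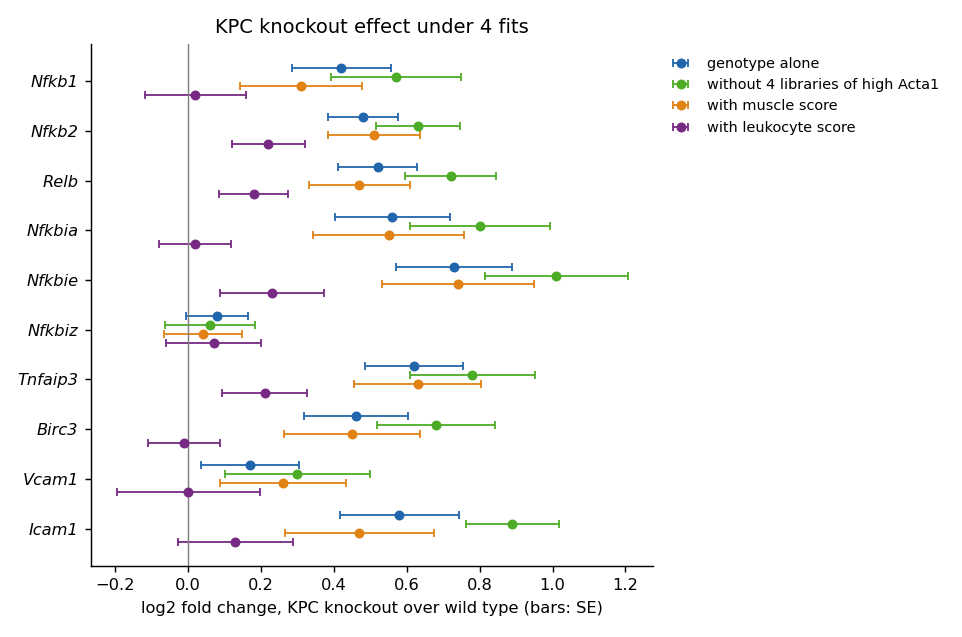
KPC log2 fold change of each member, knockout over wild type, with its standard error, under 4 fits given by colour. The fit with the leukocyte score (purple) places all members between -0.01 and 0.23, the fit with the muscle score (orange) stays close to the fit on genotype alone (blue), and the fit without the 4 libraries of high Acta1 (green) is higher for 9 of 10 members.

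Around the members, 95 other genes of the pathway in 8 lists were called only higher in KPC and in both directions in ID8. Of 89 tested in KPC, 25 were called higher and 0 lower, with a median log2 fold change of 0.29. At an unadjusted p under 0.05, 1 was lower by edgeR, and DESeq2 and limma-voom also called 0 lower after adjustment. Of 66 tested in ID8, 25 were called higher and 21 lower, with a median of 0.04. The genes tested were not the same set in the 2 lines. Of the 9 leukocyte integrin and 12 ligand genes, 9 and 9 were tested in KPC, with 4 and 4 called higher. In ID8 2 and 2 of them were tested. Over all genes tested 6.67% in KPC and 25.4% in ID8 were called higher, and 7.01% in KPC and 25.5% in ID8 lower. Calls in both directions were thus common to all genes in ID8. The KPC count of 25 depended on single tumours. It was 10, 15, 8 and 15 without knockout library 1, 3, 4 or 5, and 7, 11, 40 and 9 without wild-type library 1, 2, 4 or 5. With the leukocyte score or the muscle score as a covariate 1 of these genes was called higher in KPC.

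Among the brakes, Zc3h12a, Tnip3 and N4bp1 rose in both lines. Zc3h12a, which encodes an RNase that destroys inflammatory messages, had 30.9 ± 4.62 CPM in KPC knockout and 19.7 ± 3.45 CPM in KPC wild-type tumours, and 55.0 ± 4.41 CPM in ID8 knockout and 15.5 ± 0.822 CPM in ID8 wild-type libraries. The interaction, KPC effect minus ID8 effect, was -1.18 (SE 0.193, adjusted p = 0.000638 by edgeR). Tnip3, which encodes a binding partner of the Tnfaip3 product, rose by a log2 fold change of 1.12 (SE 0.276, adjusted p = 0.0266) in KPC and 1.17 (SE 0.0653, adjusted p = 3.85e-10) in ID8. N4bp1 rose by 0.38 in KPC and 0.31 in ID8. Of the 12 other brakes, 6 of 12 tested were higher in KPC and 5 of 11 higher and 3 lower in ID8. Over all genes tested, 6.67% were called higher in KPC, and 25.4% were called higher and 25.5% lower in ID8.

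Bcl3 encodes a nuclear IkB protein. Its KPC log2 fold change was 0.02 (SE 0.0973, adjusted p = 0.890 by edgeR), and in ID8 it had 88.7 ± 3.27 CPM in knockout and 42.0 ± 2.58 CPM in wild-type libraries (log2 fold change 1.08, adjusted p = 2.25e-10), an interaction of -1.04 (adjusted p = 0.000133). Rela, the main activating subunit, and Rel had KPC log2 fold changes of 0.04 (adjusted p = 0.675) and 0.29 (adjusted p = 0.149), and in ID8 they rose by 0.38 and 0.53. In KPC the inhibitor genes Nfkbib and Nfkbid rose by 0.49 (adjusted p = 0.0199) and 1.37 (adjusted p = 0.0333).

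Map3k14, which encodes NIK, the kinase of the non-canonical route, changed in opposite directions. It had 42.4 ± 4.04 CPM in KPC knockout and 28.4 ± 3.41 CPM in KPC wild-type tumours (log2 fold change 0.56, adjusted p = 0.00699), against 25.9 ± 2.43 CPM in ID8 knockout and 41.6 ± 2.25 CPM in ID8 wild-type libraries (log2 fold change -0.68, adjusted p = 8.48e-07). The interaction was 1.26 (SE 0.147, adjusted p = 3.87e-05 by edgeR). Chuk, an IKK catalytic subunit, rose by 0.58 in ID8, and the IKK scaffold gene Ikbkg fell by 0.27 there. Among 23 adaptors and upstream kinases, 5 of 23 tested were higher in KPC and 0 lower. In ID8 3 were higher and 9 lower of 21 tested, the lower ones including Irak1 at -0.40, Tab1 at -0.44 and Card10 at -0.34. The shares over all genes were 6.67% higher and 7.01% lower in KPC, and 25.4% higher and 25.5% lower in ID8. Traf1, Card9 and Irak4 rose in KPC by 0.85, 0.94 and 0.23. Irak4 also changed in opposite directions, with a log2 fold change of -0.38 in ID8 (adjusted p = 0.00121 by edgeR). Its interaction was 0.635 (SE 0.109, adjusted p = 0.000848 by edgeR). Traf1 stood near 1 CPM in ID8, at 0.631 ± 0.190 CPM in knockout and 1.21 ± 0.298 CPM in wild-type libraries, and fell there by 0.92 on the log2 scale (adjusted p = 0.0191).

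Tlr2, a receptor for bacterial lipoproteins, had 29.1 ± 3.31 CPM in ID8 knockout and 8.39 ± 0.438 CPM in ID8 wild-type libraries (log2 fold change 1.80, adjusted p = 1.97e-10 by edgeR). Its KPC log2 fold change was 0.40 (adjusted p = 0.121), and its interaction was -1.37 (SE 0.254, adjusted p = 0.0016 by edgeR). Il33, an alarmin cytokine, had a KPC log2 fold change of -0.13 (adjusted p = 0.516), and in ID8 it had 25.4 ± 0.489 CPM in knockout and 4.39 ± 0.265 CPM in wild-type libraries (log2 fold change 2.53, adjusted p = 1.48e-12). The interaction was -2.63 (SE 0.204, adjusted p = 8.03e-07 by edgeR). The RNA sensor gene Tlr3 rose by 0.55 in KPC and 0.74 in ID8. In KPC the ligand genes Ltb, Tnf and Tnfsf13b rose by 1.77, 1.00 and 0.89 on the log2 scale and the receptor genes Il17rc and Il17ra by 0.45 and 0.67. In ID8 Il17rc fell, with a log2 fold change of -0.19 (adjusted p = 0.0187 by edgeR), and its interaction was 0.66 (adjusted p = 0.00176). Il17ra was at 0.11 in ID8 (adjusted p = 0.189 by edgeR). Ltb, Tnf and Tnfsf13b were too low in ID8 to be tested.

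The integrins that bind Vcam1 and Icam1 products are carried by leukocytes. In KPC 4 of the 9 leukocyte integrin genes were called higher, beside 6.67% of all genes tested. Among them was Itgb2, the beta-2 chain that binds ICAM1, at 164 ± 51.9 CPM in knockout and 71.6 ± 30.7 CPM in wild-type tumours (log2 fold change 1.18, adjusted p = 0.0272 by edgeR). Itgb7 and Itgax rose by 1.77 and 1.43. In ID8 Itgb2 fell by 0.72, at 1.37 ± 0.377 CPM in knockout and 2.27 ± 0.373 CPM in wild-type libraries, and 7 of the 9 were not tested there. Of the 9 other adhesion genes, Alcam rose by 1.22 in ID8, where F11r fell by 0.44 and Pecam1 fell by 1.18 from a level near 2 CPM. In KPC 0 of 7 were called in either direction, beside 6.67% of all genes called higher and 7.01% lower.

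The genes whose log2 CPM most resembled that of 3 members over the 10 KPC tumours, out of 14273 tested genes that are no member, are given as a description. For Nfkbia they were Mcoln2 (Pearson r 0.994), Clec10a (0.991) and Pik3cd (0.991). For Relb they were Cyb561d1 (0.992), Ipcef1 (0.991) and Ucp2 (0.990). Vcam1 had no match as close, with Treml4 at 0.925, Ankrd55 at 0.921 and Lgi3 at 0.895. The 10 points of each correlation share libraries, depth and the difference between genotypes.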

How the data were processed

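RNA sequencing of 16 libraries was deposited as 4 tables of expected counts per gene, for which the submitters' processing notes name the tools HISAT and RSEM 1.2.8 and the build GRCm39. The authors' other settings are not given here by any label. Per table, between 7.92% and 8.96% of the deposited expected counts had a fractional part. All were rounded to whole counts. A gene that a table did not list was taken as 0. Group labels and replicate numbers came from the labels. All columns were matched to a sample.

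Each line was fitted alone with edgeR 4.0.16 (R 4.3.3), using TMM scaling, filterByExpr, the robust quasi-likelihood F test and Benjamini-Hochberg adjustment over all genes tested, with a threshold of 0.05. The 4 group means of all 16 libraries gave the interaction, the KPC effect minus the ID8 effect. Its spread was estimated over both lines together. Each standard error was approximated from the log2 fold change and the square root of its F statistic. CPM were scaled over all 16 libraries. The procedure was tested on simulated data.

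Alternatives were median-of-ratios size factors, DESeq2 1.42.0, limma-voom (limma 3.58.1) with quality weights, other count filters, a replicate block, a joint fit, each library left out, and, for KPC, muscle, leukocyte and endothelial marker scores as covariates or removal of libraries above 1000 CPM of Acta1. The deviations of same-numbered libraries had correlations of -0.536 to 0.588, and the labels state no pairing. The numbers were therefore not taken to pair samples, and a replicate block was run as an alternative. Replicates differed by more than sampling noise.

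The members and the gene lists, 8 of pathway genes and 13 of cell type markers, were chosen with earlier results of these data known. Named genes are the 10 members, Trp53bp1, up to 3 called genes per pathway list and line by smallest p, 3 genes of highest correlation for Nfkbia, Relb and Vcam1 each, markers at 0, and Ptprc, Adgre1, Cdh5 and Acta1. Promoter windows are from RefSeq on GRCm38.p6, which differs from the build of the counts. Transcript lengths are from a GENCODE annotation of GRCm38. RSEM can split reads among near-identical genes, and no source used here gives the strand setting of the counting. Depth of 17902867 to 19727536 counts per library was used, and counting error is part of the spread given.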

Additional observations from a re-analysis of the deposited data

Results flagged for a closer look

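Vcam1 in KPC wild-type library 5 stood apart from the other 4 libraries of its group, at 166 CPM, where the others lay between 250.2 and 277 CPM. This was 1 of 20 groups of 5 checked, that is 10 members in both KPC groups. Chance can set 1 of so many apart, and its rate was not computed. The 20 groups share the same 10 libraries and are not independent.

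The knockout effect on Nfkbiz differed between the lines, with an effect in KPC minus that in ID8 of -2.31 on the log2 scale, and that on Vcam1 differed by -3.29, both by the interaction test of edgeR's quasi-likelihood fit over 16 libraries. For Nfkbiz all 3 ID8 knockout libraries lay above all ID8 wild-type libraries, while the KPC groups overlapped, and the same held for Vcam1.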

How the results depend on the processing

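Directions of the called members were the same in every alternative run. The number of members called was 6 in KPC, 9 in ID8 and 2 in the interaction, and 1953, 6067 and 3259 genes were called in KPC, in ID8 and in the interaction. In KPC the genes called were 3162 by DESeq2, 3149 by limma-voom, 3524 in the joint fit of the 4 groups, 358 with the muscle score and 347 with the leukocyte score, and the members called were 0 with either score. In ID8 the joint fit called 2681 genes and 6 members, without Nfkb2, Nfkbie and Birc3, and DESeq2 called 8, without Birc3. The joint fit takes the spread from both lines together. It gave these 3 genes log2 fold changes of 0.202, 0.496 and 0.185, against 0.206, 0.500 and 0.189 with ID8 fitted alone. Their standard errors were 0.115, 0.193 and 0.171 in the joint fit, against 0.0512, 0.0892 and 0.0705 in ID8 alone. In the interaction limma-voom called 4923 genes and 5 members. With each library left out in turn, KPC gave 934 to 3106 genes and 4 to 8 members, ID8 8 to 9 members, and the interaction gave 2 to 4 members. The cause of these shifts was not tested.

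With the replicate block, KPC gave 8 members, Nfkb1 (adjusted p = 0.048 by edgeR) and Birc3 (adjusted p = 0.0318) being added, ID8 gave 8, Birc3 being lost (adjusted p = 0.0535), and the interaction gave 3, Relb being added (adjusted p = 0.0376). The labels give same-numbered libraries no link beyond the number, and whether they shared a batch was not tested. Of the 5 KPC numbers 1 matched its own number best, which was number 2 (correlation 0.588), and of the 3 ID8 numbers 1 did. The lowest count of a member was 179. Whether depth or the spread between tumours limits the calls was not tested.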
